A study of Mus musculus with 12 samples.

Results

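The genes described here are 10 members of the Notch pathway: the receptors Notch1, Notch2 and Notch3, the ligands Jag1 and Dll1, the receptor-modifying enzyme Lfng, and the target genes Hes1, Hey1, Heyl and Nrarp. They were taken by gene symbol from the 54532 rows of 1 FPKM table (fragment counts divided by gene length and a measure of sequencing depth), and all 10 were found. The RNA came from MEFs, fibroblasts cultured from mouse embryos, in 4 groups of 3 libraries: CHIP-KO cells held for 1 hour at 43 °C, unheated CHIP-KO cells, heated wild-type (WT) cells and unheated WT cells. CHIP, encoded by Stub1, is a ubiquitin ligase that binds chaperones, and the study's title names heat stress together with the structure and function of this enzyme. The labels give MEF as the cell line of every library and do not say how many embryos, clones or separate cultures stand behind a genotype. Genotype and line of origin therefore cannot be told apart, and the spread behind each p value is that between these libraries, which may be technical.

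Notch receptors are single-pass proteins cut by proteases once they bind a Delta or Jagged ligand on a neighbouring cell. The freed intracellular part joins the DNA-binding protein RBPJ in the nucleus and switches on target genes, among them HES and HEY genes, whose products are repressors of the basic helix-loop-helix class. Hes1 represses its own transcription, its RNA is short-lived, and its level swings in fibroblasts after serum is given. Lunatic fringe, made from Lfng, adds a sugar to Notch receptors that changes which ligands they answer. Nrarp, an ankyrin repeat protein, is a Notch target that limits Notch signalling.

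Windows around annotated start sites, from 250 bases before to 50 bases after, were available from RefSeq (GRCm38.p6) for 7 members, and 3 (Hes1, Hey1 and Heyl) were not matched. Sequences are shown for Lfng, whose level was lower after heat, for Jag1 and Notch1, whose levels were higher together, and for the target gene Nrarp. Both strands were searched for the RBPJ site GTGGGAA, the E-box CACGTG, the N-box CACNAG (a site bound by HES repressors), the heat shock element core GAANNTTC and the cyclic AMP element TGACGTCA. Capitals mark matches.
Lfng (chr5:140607091-140607390, plus strand): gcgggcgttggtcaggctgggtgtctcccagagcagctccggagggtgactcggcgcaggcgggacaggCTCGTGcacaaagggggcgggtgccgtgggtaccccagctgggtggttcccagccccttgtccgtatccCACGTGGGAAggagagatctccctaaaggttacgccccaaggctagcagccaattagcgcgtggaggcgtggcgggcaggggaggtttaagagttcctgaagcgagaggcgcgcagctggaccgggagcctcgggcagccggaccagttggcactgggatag
Jag1 (chr2:137116471-137116770, minus strand): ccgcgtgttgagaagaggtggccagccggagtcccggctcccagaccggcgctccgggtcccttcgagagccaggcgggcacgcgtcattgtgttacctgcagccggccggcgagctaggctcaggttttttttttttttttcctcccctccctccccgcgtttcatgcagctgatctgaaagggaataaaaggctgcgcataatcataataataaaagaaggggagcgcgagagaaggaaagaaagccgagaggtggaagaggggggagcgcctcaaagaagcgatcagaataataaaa
Notch1 (chr2:26503773-26504072, minus strand): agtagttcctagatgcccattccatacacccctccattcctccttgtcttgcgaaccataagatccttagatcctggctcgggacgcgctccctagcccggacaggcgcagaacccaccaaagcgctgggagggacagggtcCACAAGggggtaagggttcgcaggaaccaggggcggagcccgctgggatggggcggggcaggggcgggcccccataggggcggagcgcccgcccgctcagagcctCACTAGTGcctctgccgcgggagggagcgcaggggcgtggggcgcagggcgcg
Nrarp (chr2:25180508-25180807, plus strand): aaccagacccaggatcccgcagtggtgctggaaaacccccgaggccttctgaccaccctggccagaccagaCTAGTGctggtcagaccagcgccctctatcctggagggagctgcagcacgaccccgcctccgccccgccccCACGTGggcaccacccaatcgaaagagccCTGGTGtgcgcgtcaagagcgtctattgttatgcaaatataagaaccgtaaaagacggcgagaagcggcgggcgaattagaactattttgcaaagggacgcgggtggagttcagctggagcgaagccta
The Lfng window held an RBPJ site that begins at -109 from the start site and shares its first 3 bases with an E-box that begins at -112. It was the only RBPJ match among the windows of the 7 members, and 6.38% of 32851 windows in the RefSeq table held this site. The Jag1 window held none of the 5 motifs. Each of the 7 members but Jag1 had an N-box in a window, as did 42.5% of all windows, and those of Lfng and Nrarp also an E-box (7.15% of all windows). The heat shock element core (7.86% of all windows) and the cyclic AMP element (1.79%) were in no member's window. The Notch1 window lies inside the annotated gene, whose outer end is at 26516663, so it belongs to an inner start site. A match is a description of letters and does not show binding.

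Stub1 stood at 0.722 to 1.17 FPKM in the 6 CHIP-KO libraries and at 53.8 to 64.1 FPKM in the 6 WT libraries. Per library, 15591924 to 26954112 fragments could be recovered from the FPKM values. WT replicates 1 stood apart from the rest of their groups, with limma library weights of 0.165 heated and 0.192 unheated. Replicate 1 of heated CHIP-KO cells had a weight of 0.439, and replicate 2 of heated WT cells 0.483. The heated replicates 1 of the genotypes deviated from their group means together (r = 0.335 across genes). Fibroblast markers summed to 3356 to 4100 FPKM in CHIP-KO and 1617 to 2910 FPKM in WT libraries. Of their 10 genes, 9 had a mean of at least 1 FPKM in each CHIP-KO group and 7 in each WT group; Lum reached at most 0.176, Dcn 1.41 and Thy1 9.15 FPKM. Of endothelial markers, Tie1 was at 0 in every library and Cdh5 at most at 0.0190 FPKM, and their 7 genes summed to at most 0.798 FPKM. Of mural cell markers, a list that includes Notch3, Rgs5 reached at most 0.0775 and Myh11 0.116 FPKM, while the list summed to 86.0 to 100.9 FPKM in heated CHIP-KO, 88.8 to 91.7 in unheated CHIP-KO, 67.7 to 89.7 in heated WT and 40.6 to 48.4 in unheated WT libraries, with Acta2 at 27.0 to 72.5 FPKM. Myeloid markers summed to 8.61 to 10.8 FPKM in heated and 3.97 to 4.63 FPKM in unheated CHIP-KO libraries, and to 13.5 to 15.9 FPKM in heated and 2.001 to 3.41 FPKM in unheated WT libraries. Of these, Cd68 alone had a group mean of 1 FPKM or more (1.72 to 15.4 FPKM), Adgre1 was at 0 throughout and Ptprc reached at most 0.0104 FPKM. Neural markers summed to 17.7 to 22.6 FPKM in CHIP-KO and 6.65 to 8.61 FPKM in WT libraries, with Tubb3 at 5.91 to 18.3 and Sox2 at 0.137 to 4.199 FPKM. Mesothelial markers summed to 5.40 to 6.05 FPKM in heated WT and to 27.7 to 38.1 FPKM in the other libraries, nearly all Msln, with Wt1 and Lrrn4 at 0. Epithelial and skeletal muscle markers summed to at most 2.19 and 2.13 FPKM. The part of cell makeup in the results below was not tested, and in bulk RNA fewer cells of a type and less RNA per cell cannot be told apart.

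Differences were tested on log2(FPKM + 1) with limma over the 13023 genes that reached 1 FPKM in at least 3 libraries, and a gene was called where the p, adjusted after Benjamini-Hochberg, was under 0.05. Of the 10 members, 6 passed this filter (Notch1, Notch2, Notch3, Jag1, Hes1 and Lfng), and Dll1, Hey1, Heyl and Nrarp did not. Jag1 passed in 9 of 12 libraries, all but those of unheated WT cells. With heat in WT cells 5 of the 6 tested members rose and 1, Lfng, fell, where 58.7% of all tested genes were called, 28.1% higher and 30.5% lower. With heat in CHIP-KO cells Hes1 and Notch1 rose and Lfng fell, where 20.0% of all tested genes were called, 8.65% higher and 11.4% lower. Unheated CHIP-KO cells had higher Notch1, Notch2 and Jag1 and lower Lfng than unheated WT cells, against 48.5% of tested genes called, 23.9% higher and 24.5% lower. Heated CHIP-KO cells had higher Notch2 and lower Notch3, Hes1 and Lfng than heated WT cells, against 42.4% called, 23.3% higher and 19.1% lower. The interaction, the heat change in CHIP-KO minus that in WT, was negative past the threshold for Notch1, Notch3, Jag1 and Hes1, where 35.2% of tested genes were called, 17.3% negative and 17.9% positive. By raw values, every heated library lay above every unheated library for 5 and below for 1 of the 6 in WT cells (29.3% and 31.1% of tested genes), and for 3 and 1 in CHIP-KO cells (22.8% and 25.9%). Unheated CHIP-KO libraries lay above all unheated WT libraries for 4 and below for 1 (30.1% and 31.1%), and heated CHIP-KO above all heated WT libraries for 0 and below for 1 (27.7% and 22.7%).

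**Figure D1:**
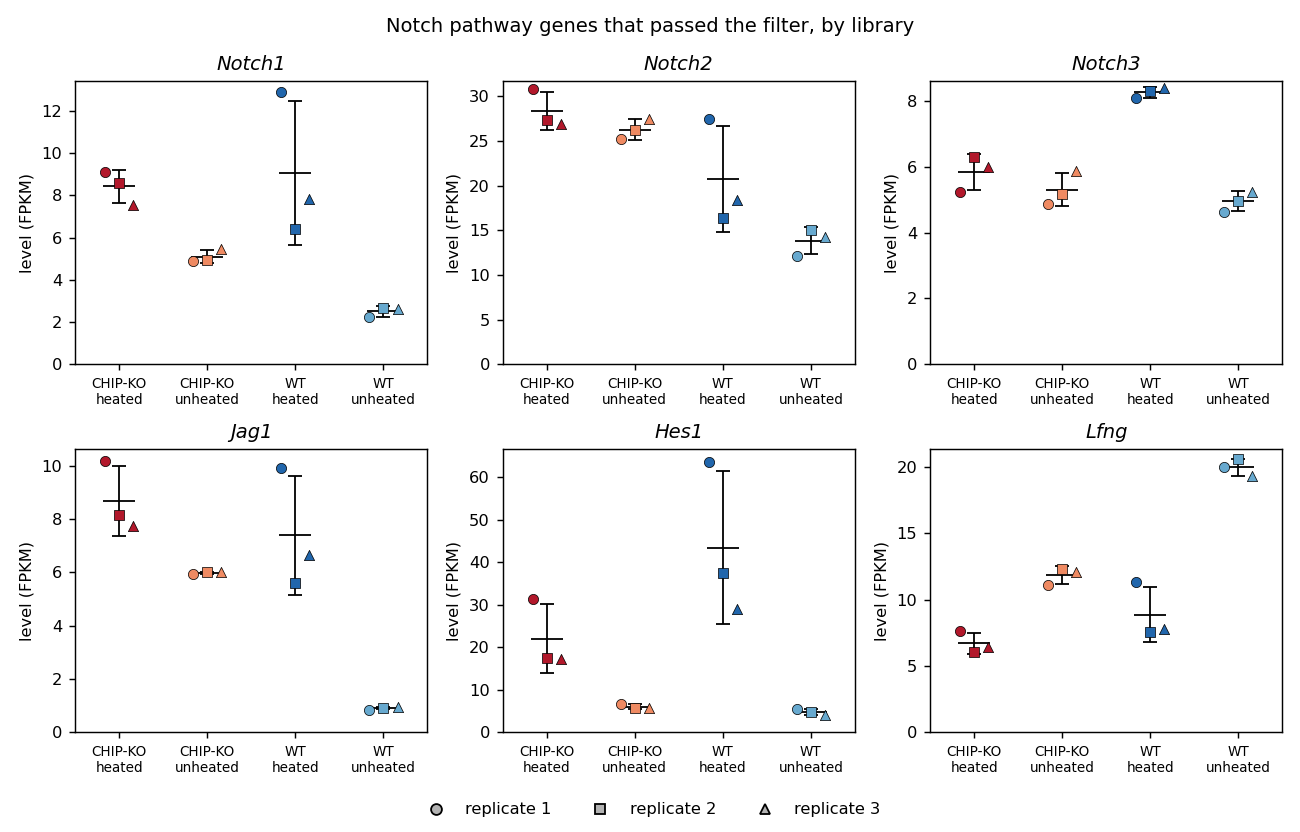
Level in FPKM of the 6 members that passed the filter, in each of the 12 libraries. Symbols mark replicates 1 to 3, and black bars the mean and SD of 3 libraries; the mean of Hes1 was highest in heated WT, and that of Lfng in unheated WT libraries.

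Notch2 (ENSMUSG00000027878, chromosome 3, positions 98013527 to 98150361, plus strand, GRCm38), a receptor, was the most abundant of the receptors in every library. It had 30.8, 27.3 and 26.9 FPKM in replicates 1, 2 and 3 of heated CHIP-KO cells, against 25.2, 26.2 and 27.4 FPKM in unheated CHIP-KO cells. In WT cells it had 27.5, 16.3 and 18.3 FPKM heated, against 12.1, 15.02 and 14.3 FPKM unheated. The CHIP-KO groups overlapped each other, and the unheated WT libraries were lower than all others. Without heat, Notch2 averaged 26.3 ± 1.14 FPKM in CHIP-KO and 13.8 ± 1.52 FPKM in WT cells (SD, n = 3 each), a log2 difference of 0.89 (SE 0.15, limma adjusted p = 0.000614). With heat in WT cells it rose by a log2 change of 0.52 (limma adjusted p = 0.0117), with means of 20.7 ± 5.94 FPKM heated and 13.8 ± 1.52 FPKM unheated. This change was 0.31 without heated replicate 1 and 0.23 (limma adjusted p = 0.0314) without WT replicate 1 of both treatments. It missed the threshold with these groups fitted alone (limma adjusted p = 0.0588) and when each library was scaled to an equal sum (limma adjusted p = 0.143). In heated cells the CHIP-KO level was higher by a log2 difference of 0.46 (limma adjusted p = 0.0296), a call lost without WT replicate 2 or 3 or CHIP-KO replicate 1 or 2 of the heated groups (limma adjusted p = 0.0572 to 0.109), with no filter, with an equal sum and with these groups alone (limma adjusted p = 0.0652, 0.0909 and 0.0926). The heat change in CHIP-KO cells, a log2 value of 0.10, did not pass (limma adjusted p = 0.685). The interaction of -0.42 did not pass either (limma adjusted p = 0.153), but did without heated WT replicate 2 (limma adjusted p = 0.0461).

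Notch1 (ENSMUSG00000026923, chromosome 2, positions 26457903 to 26516663, minus strand), the receptor known from T cell leukaemia and vessel growth, stood lower than Notch2 throughout. It had 9.10, 8.59 and 7.56 FPKM in heated CHIP-KO libraries, against 4.88, 4.96 and 5.46 FPKM in unheated CHIP-KO libraries. WT libraries had 12.9, 6.39 and 7.84 FPKM heated, against 2.22, 2.66 and 2.63 FPKM unheated. The heated groups overlapped each other and lay above unheated CHIP-KO, which lay above unheated WT. Heat raised it 2.77-fold in WT cells on the fitted scale (log2 change 1.47, SE 0.18, limma adjusted p = 4.19e-05) and 1.54-fold in CHIP-KO cells (limma adjusted p = 0.0319). The call in CHIP-KO cells was lost when any of the 6 CHIP-KO libraries was left out (limma adjusted p = 0.0515 to 0.0936), with no filter and with an equal sum (limma adjusted p = 0.0753 and 0.155). Without heat, the CHIP-KO level was 1.74-fold the WT level on the fitted scale (limma adjusted p = 0.00348) and 2.04-fold by mean FPKM. After heat the levels averaged 8.42 ± 0.788 FPKM in CHIP-KO and 9.04 ± 3.41 FPKM in WT cells, with no call (limma adjusted p = 0.873). The WT mean was 7.12 FPKM without replicate 1, which turned the sign of this difference. The interaction was a log2 value of -0.84 (limma adjusted p = 0.0243), -0.58 without heated WT replicate 1, -0.52 without WT replicate 1 of both treatments, and past the threshold no longer without WT replicate 1, CHIP-KO replicate 3 or heated CHIP-KO replicate 3 (limma adjusted p = 0.0531 to 0.0574), or with no filter (limma adjusted p = 0.0643).

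Notch3 (ENSMUSG00000038146, chromosome 17, positions 32120820 to 32166880, minus strand), a receptor best known in the mural cells of vessels, followed another order. It had 5.24, 6.29 and 5.98 FPKM in heated CHIP-KO libraries, against 4.87, 5.16 and 5.86 FPKM in unheated CHIP-KO libraries. WT libraries had 8.08, 8.29 and 8.40 FPKM heated, against 4.64, 4.96 and 5.24 FPKM unheated. Heated WT libraries lay above all other libraries, and unheated CHIP-KO libraries overlapped both heated CHIP-KO and unheated WT libraries. Notch3 rose by 0.64 on the log2 scale with heat in WT cells (SE 0.075, limma adjusted p = 2.96e-05). Its log2 change of 0.12 in CHIP-KO cells did not pass (limma adjusted p = 0.297), though it did with library weights (0.20, limma adjusted p = 0.0115). After heat Notch3 averaged 5.84 ± 0.538 FPKM in CHIP-KO and 8.26 ± 0.158 FPKM in WT cells (SD, n = 3 each), a log2 difference of -0.44 (limma adjusted p = 0.00067). The interaction was -0.52 (SE 0.11, limma adjusted p = 0.00297), and the call held with each library left out in turn. The heated WT replicate 1, highest of its group for the other 5 tested members, was the lowest for Notch3.

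The summed level of Notch1 to Notch4 was 40.6 to 45.2 FPKM in heated CHIP-KO, 35.0 to 38.8 FPKM in unheated CHIP-KO, 31.6 to 49.0 FPKM in heated WT and 19.4 to 23.0 FPKM in unheated WT libraries. Notch2 made up 66.3% ± 1.74 of this sum in heated CHIP-KO, 71.5% ± 0.674 in unheated CHIP-KO, 53.3% ± 2.37 in heated WT and 63.7% ± 1.53 in unheated WT cells (SD, n = 3 each). The Notch1 share was 19.7% ± 0.922 in heated against 13.9% ± 0.225 in unheated CHIP-KO cells, and 22.9% ± 3.07 in heated against 11.6% ± 0.128 in unheated WT cells. The Notch3 share was 13.7% ± 1.85 and 14.4% ± 0.616 in heated and unheated CHIP-KO cells, and 22.2% ± 5.08 and 22.9% ± 1.19 in heated and unheated WT cells. So the Notch1 share was higher in every heated library than in every unheated library, while the Notch3 share was lower in every CHIP-KO library than in every WT library. Notch4, the receptor of endothelial cells, made up at most 2.31% in any library. These shares compare levels per length and carry no test.

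**Figure D2:**
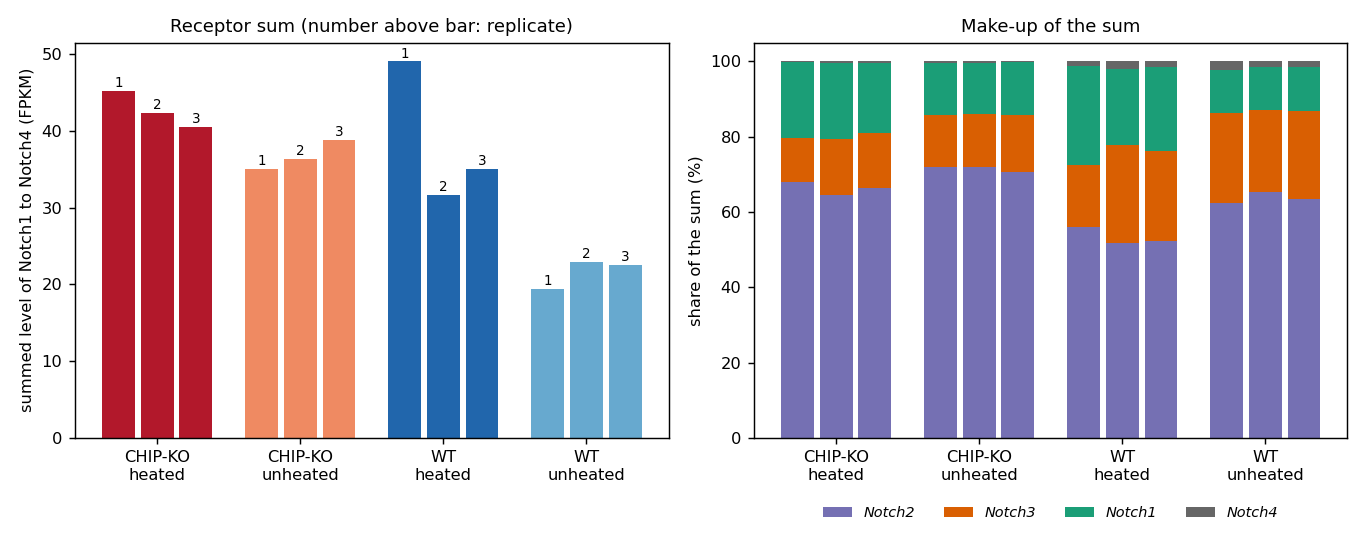
Left, summed level of Notch1 to Notch4 in FPKM in each library, with the replicate number above each bar; right, the share of each receptor in that sum in percent. Notch2 held the largest share in all 12 libraries, and the Notch1 share was higher in heated libraries.

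Jag1 (ENSMUSG00000027276, chromosome 2, positions 137081456 to 137116644, minus strand) encodes Jagged1, a ligand of the Notch receptors. It had 10.2, 8.13 and 7.74 FPKM in heated CHIP-KO libraries, against 5.95, 6.003 and 6.01 FPKM in unheated CHIP-KO libraries. WT libraries had 9.91, 5.60 and 6.65 FPKM heated, against 0.849, 0.921 and 0.938 FPKM unheated. Unheated WT libraries, with 78 to 116 fragments each, lay below all others, and heated WT libraries overlapped both CHIP-KO groups. The mean FPKM was 8.18-fold higher in heated than in unheated WT cells, and 6.63-fold higher in unheated CHIP-KO than in unheated WT cells. On the fitted scale, which understates changes of low values, these were 4.31-fold (log2 change 2.11, SE 0.15, limma adjusted p = 9.24e-07) and 3.67-fold (log2 difference 1.88, limma adjusted p = 1.93e-06). In CHIP-KO cells heat gave a log2 change of 0.46, outside the threshold (limma adjusted p = 0.0548). It came inside with these groups alone (limma adjusted p = 0.0123), with library weights (limma adjusted p = 0.000667), in limma's voom on recovered fragments (limma adjusted p = 0.0354), with the replicate number as a block (limma adjusted p = 0.0446), without WT replicate 1 of both treatments (limma adjusted p = 0.00520) and without heated WT replicate 1 or 2 (limma adjusted p = 0.00456 and 0.0269). The interaction was a log2 value of -1.65 (SE 0.22, limma adjusted p = 0.000179), between -1.80 and -1.44 with each library left out in turn. After heat the genotypes averaged 8.68 ± 1.30 FPKM in CHIP-KO and 7.39 ± 2.24 FPKM in WT cells, with no call (limma adjusted p = 0.252) until heated WT replicate 1 was left out (log2 difference 0.44, limma adjusted p = 0.00584).

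Dll1 (ENSMUSG00000014773, chromosome 17, positions 15367354 to 15376872, minus strand), a Delta-type ligand, was low everywhere. It had 18 to 33 fragments (0.222 to 0.306 FPKM) in heated CHIP-KO, 16 to 24 fragments (0.152 to 0.215 FPKM) in unheated CHIP-KO, 17 to 32 fragments (0.234 to 0.393 FPKM) in heated WT and 2 to 11 fragments (0.0242 to 0.123 FPKM) in unheated WT libraries. Each unheated WT library was below each library of the other groups. Dll1 missed the filter. Its ratio of mean FPKM with heat was 1.36 in CHIP-KO and 4.53 in WT cells.

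Lfng (ENSMUSG00000029570, chromosome 5, positions 140607320 to 140615545, plus strand) is the glycosyltransferase gene whose start-site window is printed above. With heat in WT cells it fell, where Notch1, Notch2 and Notch3 rose. It had 7.61, 6.06 and 6.44 FPKM in heated CHIP-KO libraries, against 11.1, 12.3 and 12.1 FPKM in unheated CHIP-KO libraries. WT libraries had 11.3, 7.55 and 7.77 FPKM heated, against 20.0, 20.6 and 19.3 FPKM unheated. Heated libraries lay below unheated libraries in both genotypes, and unheated CHIP-KO below unheated WT. Lfng fell with heat by 1.11 on the log2 scale in WT cells (SE 0.12, limma adjusted p = 2.32e-05) and by 0.74 in CHIP-KO cells (SE 0.12, limma adjusted p = 0.00222). Without heat it was lower in CHIP-KO cells, by a log2 difference of -0.71 (limma adjusted p = 0.000716). In heated cells the difference was -0.34 (limma adjusted p = 0.0459). It dropped to -0.17 without heated WT replicate 1, and 9 of the 12 libraries left out in turn ended the call (limma adjusted p = 0.0543 to 0.150), namely each unheated library, heated WT replicate 1 and heated CHIP-KO replicates 2 and 3. It was also lost with no filter and with these groups alone (limma adjusted p = 0.0920 and 0.138). The interaction of 0.37 did not pass (limma adjusted p = 0.131), but did without heated WT replicate 1 (log2 value 0.53, limma adjusted p = 0.00361).

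Hes1 (ENSMUSG00000022528, chromosome 16, positions 30064384 to 30067796, plus strand), the repressor gene downstream of Notch, had the largest heat change of the 6 tested members in both genotypes. It had 31.4, 17.5 and 17.1 FPKM in heated CHIP-KO libraries, against 6.60, 5.60 and 5.75 FPKM in unheated CHIP-KO libraries. WT libraries had 63.7, 37.5 and 29.0 FPKM heated, against 5.39, 4.67 and 4.05 FPKM unheated. Every heated library lay above every unheated library, and replicate 1 of heated CHIP-KO cells overlapped heated WT cells. In CHIP-KO cells the rise was 3.17-fold on the fitted scale (log2 change 1.67, SE 0.27, limma adjusted p = 0.00184). In WT cells the log2 change was 2.89 (SE 0.27, limma adjusted p = 5.96e-06), rank 37 by size among the 13023 tested genes, and with each library left out it stayed between 2.58 and 3.14. After heat Hes1 averaged 22.0 ± 8.12 FPKM in CHIP-KO and 43.4 ± 18.1 FPKM in WT cells, a log2 difference of -0.93 (limma adjusted p = 0.0169). That call was lost without heated WT replicate 1 (log2 difference -0.62, limma adjusted p = 0.0509), or heated CHIP-KO replicate 2 or 3 (limma adjusted p = 0.0658 and 0.0653), or with these groups alone (limma adjusted p = 0.0741). The interaction of -1.23 (SE 0.38, limma adjusted p = 0.0284) was lost when any of 6 libraries was left out: unheated WT replicates 2 and 3, unheated CHIP-KO replicates 1 and 3, and heated CHIP-KO replicates 2 and 3 (limma adjusted p = 0.0512 to 0.0685). It was also lost with no filter (limma adjusted p = 0.0748). Without heat Hes1 averaged 5.98 ± 0.535 FPKM in CHIP-KO and 4.70 ± 0.673 FPKM in WT cells, which did not pass (log2 difference 0.30, limma adjusted p = 0.397). The difference passed when the 3 replicates 1 with the lowest library weights were left out (0.38, limma adjusted p = 0.0174). That alternative was chosen after seeing the data.

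**Figure D3:**
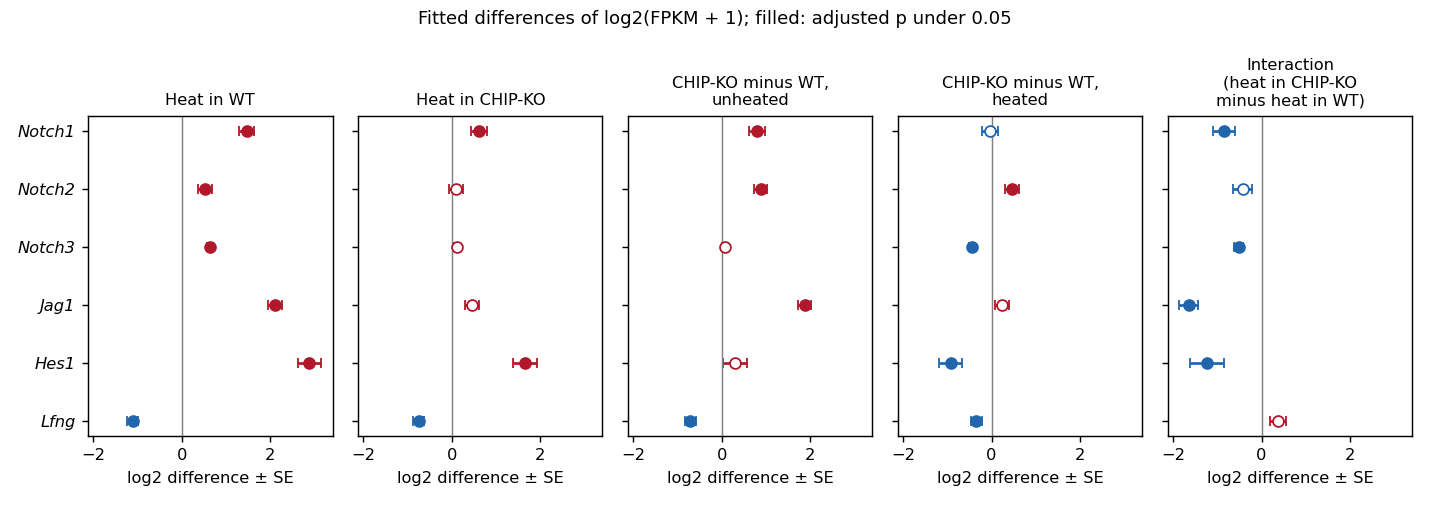
Log2 difference of FPKM + 1 with its SE for the 6 tested members in the 5 comparisons, where filled points passed the limma threshold. Hes1 and Jag1 had the largest rises with heat in WT cells, Lfng was below 0 in both heat comparisons, and the interaction was below 0 for all but Lfng.

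Hey1 (ENSMUSG00000040289, chromosome 3, positions 8663359 to 8667256, minus strand), a HES-related repressor gene and Notch target, stayed below 1 FPKM. It had 17 to 46 fragments (0.256 to 0.552 FPKM) in heated CHIP-KO, 18 fragments in each unheated CHIP-KO library (0.204 to 0.238 FPKM), 30 to 57 fragments (0.503 to 0.905 FPKM) in heated WT and 1 to 11 fragments (0.0157 to 0.159 FPKM) in unheated WT libraries. As for Dll1, the unheated WT libraries were lowest and heated libraries lay above unheated ones in each genotype.

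Heyl (ENSMUSG00000032744, chromosome 4, positions 123233556 to 123249875, plus strand), another HES-related repressor gene, had 3, 2 and 1 fragments in heated WT libraries and 0 in the other 9 libraries. A count of 0 allows up to 3 fragments, which is 0.0217 to 0.0372 FPKM in those libraries, so no difference was detectable at this depth. Nrarp (ENSMUSG00000078202, chromosome 2, positions 25180758 to 25183339, plus strand) went the other way in WT cells. It had 26, 23 and 21 fragments (0.394, 0.463 and 0.400 FPKM) in heated CHIP-KO, against 29, 26 and 12 fragments (0.449, 0.373 and 0.200 FPKM) in unheated CHIP-KO libraries. WT libraries had 10, 3 and 8 fragments (0.201, 0.0676 and 0.169 FPKM) heated, against 46, 20 and 20 fragments (1.13, 0.396 and 0.365 FPKM) unheated. The CHIP-KO groups overlapped, while each heated WT library was below each unheated WT library.

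These 4 low genes are to be read against other low genes. In WT cells, 18.3% of the 16086 genes that missed the filter but had a fragment in some library had every heated library above every unheated one, and 2.44% had the reverse. In CHIP-KO cells the shares were 12.3% and 3.56%. Between genotypes, 8.39% lay higher and 5.60% lower in every unheated CHIP-KO library, and 5.32% higher and 10.3% lower in every heated one. Dll1 and Hey1 lay higher in unheated CHIP-KO libraries, and Nrarp higher in heated ones. Heyl lay lower in heated CHIP-KO libraries, at 0 against 1 to 3 fragments in heated WT libraries, which is within what a count of 0 allows. Libraries of heated cells also listed more genes above 0, with 21859 to 22239 in heated against 20017 to 20771 in unheated CHIP-KO cells, and 21703 to 23031 in heated against 18597 to 20431 in unheated WT cells. Dll1, Hey1 and, with at most 3 fragments, Heyl shared their direction in WT cells with the larger of these shares, and Nrarp with the smaller. With no filter on low values, limma over 29109 genes called 9 of the 10 members for heat in WT cells, 7 higher and 2 lower, where 31.8% of genes were called, 18.5% higher and 13.3% lower. These included Dll1 (log2 change 0.30, limma adjusted p = 0.00169), Hey1 (0.62, limma adjusted p = 0.000998) and Nrarp (-0.48, limma adjusted p = 0.0363), while Heyl did not pass (limma adjusted p = 0.0572). None of these 4 genes was called in the other 4 comparisons, where the lowest limma adjusted p was 0.0571, for Dll1 in unheated CHIP-KO against unheated WT cells.

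**Figure D4:**
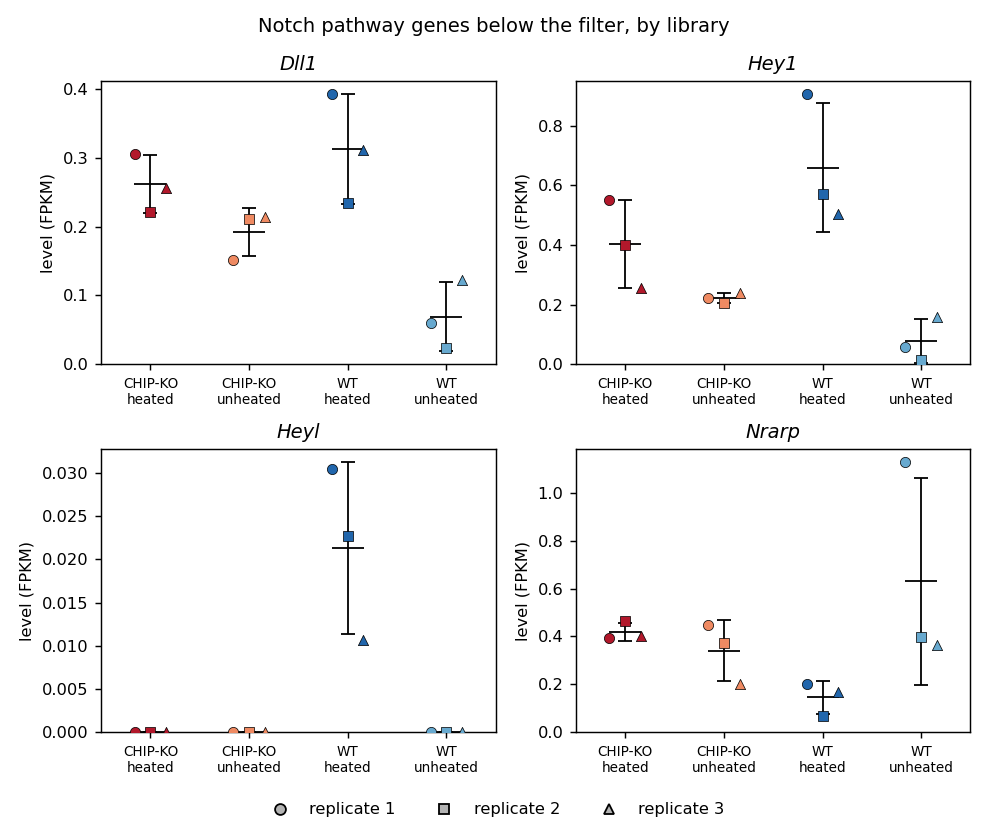
Level in FPKM of the 4 members that missed the filter, in each of the 12 libraries, with the mean and SD of 3 libraries in black. Heyl was above 0 in the 3 heated WT libraries alone, with at most 3 fragments, and the mean of Nrarp was lowest in heated WT libraries.

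The rest of the pathway was described through 7 lists by role, which hold 74 genes, the 10 members included, of which 56 were tested. With heat in WT cells 21 of the 56 rose and 11 fell, where 28.1% of all tested genes rose and 30.5% fell, at a median log2 change of 0.11 against -0.016 over all tested genes. With heat in CHIP-KO cells 11 rose and 5 fell, where 8.65% of all tested genes rose and 11.4% fell, at a median of 0.057 against -0.0018. Without the members, 16 of 50 rose and 10 fell with heat in WT cells, and 9 rose and 4 fell in CHIP-KO cells, to be read against the same shares of all tested genes. Between genotypes, 20 of 56 were higher and 8 lower in unheated CHIP-KO cells (23.9% and 24.5% of all tested genes, median log2 difference 0.086 against -0.012), and 17 were higher and 12 lower in heated CHIP-KO cells (23.3% and 19.1% of all tested genes, median 0.0010 against 0.013). The interaction was positive for 3 and negative for 13 (17.9% and 17.3% of all tested genes), at a median of -0.077 against -0.0029. Without the members, 17 of 50 were higher and 7 lower in unheated CHIP-KO cells, at a median log2 difference of -0.0015. In heated CHIP-KO cells 16 were then higher and 9 lower (median 0.011), and the interaction was positive for 3 and negative for 9 (median -0.059). The counts for single lists below stand against the same shares with heat, 28.1% higher and 30.5% lower in WT cells and 8.65% higher and 11.4% lower in CHIP-KO cells.

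Among other ligands, Dlk1, a Delta-like protein without the domain by which ligands activate Notch, averaged 20.2 ± 0.629 FPKM in heated and 17.8 ± 0.217 FPKM in unheated CHIP-KO cells and had 0 fragments in all 6 WT libraries. Against the level that 3 fragments would give per library, it was at least 601-fold higher in heated and 528-fold higher in unheated CHIP-KO cells. Among HES relatives, Bhlhe40, a repressor gene of the same wider family, averaged 39.3 ± 11.5 FPKM in heated against 15.7 ± 0.917 FPKM in unheated CHIP-KO cells, and 30.7 ± 9.17 FPKM in heated against 6.58 ± 0.556 FPKM in unheated WT cells. On the fitted scale it rose 4.08-fold with heat in WT and 2.35-fold in CHIP-KO cells (limma adjusted p = 1.03e-05 and 0.00207). Hey2, another HEY gene, was 2.55 ± 1.05 FPKM in heated CHIP-KO and 0.433 ± 0.231 FPKM in heated WT cells (log2 difference 1.28, limma adjusted p = 0.000161). It was higher in CHIP-KO cells without heat too, at 0.983 ± 0.0441 against 0.114 ± 0.0184 FPKM (log2 difference 0.83, limma adjusted p = 0.00256). Its interaction did not pass (limma adjusted p = 0.190). Hey2 passed the filter through CHIP-KO libraries alone. It reached at most 0.699 FPKM in heated WT libraries and had 7 to 12 fragments per unheated WT library. The filter thus kept Hey2 through the genotype in which it was higher, and these p values do not allow for that. Hes5, a common Notch target in neural cells, had 0 fragments in every library.

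Of 9 tested genes for receptor cleavage, 1 rose and 3 fell with heat in WT cells, and 0 rose and 1 fell in CHIP-KO cells. Adam10, the protease that cuts ligand-bound receptors, averaged 28.9 ± 1.73 FPKM in heated against 39.7 ± 0.872 FPKM in unheated CHIP-KO cells, and 32.1 ± 2.52 FPKM in heated against 42.7 ± 1.26 FPKM in unheated WT cells. It fell in both (limma adjusted p = 0.000765 in CHIP-KO and 0.000231 in WT cells). Of 13 tested genes for glycosylation, ubiquitin ligases and trafficking, 5 rose and 3 fell with heat in WT cells, and 4 rose and 1 fell in CHIP-KO cells. Dtx3, a Deltex-type ligase gene, was 2.25-fold higher on the fitted scale in heated than in unheated WT cells (limma adjusted p = 9.04e-08). Dtx4, of the same family, was 2.60-fold higher on the fitted scale in unheated CHIP-KO than in unheated WT cells (limma adjusted p = 2.14e-08). Its ratio of mean FPKM was 3.88. Of 20 tested genes of the nuclear complex and corepressors, 8 rose and 3 fell with heat in WT cells, and 1 rose and 2 fell in CHIP-KO cells. Those at least 2-fold higher in WT cells were Tle2 and Tle1, corepressors that HES proteins recruit, and Crebbp, a histone acetyltransferase gene. Tle2 had 44.1 ± 3.23 FPKM in heated against 18.9 ± 4.32 FPKM in unheated WT cells, and its interaction was -1.18 (limma adjusted p = 0.00123). Tle1 was 3.54-fold higher on the fitted scale in unheated CHIP-KO than in unheated WT cells (limma adjusted p = 7.57e-08). Its ratio of mean FPKM was 4.12. Rbpj itself averaged 9.24 ± 0.510 FPKM in unheated CHIP-KO and 5.71 ± 0.335 FPKM in unheated WT cells (log2 difference 0.61, limma adjusted p = 0.000486).

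**Figure D5:**
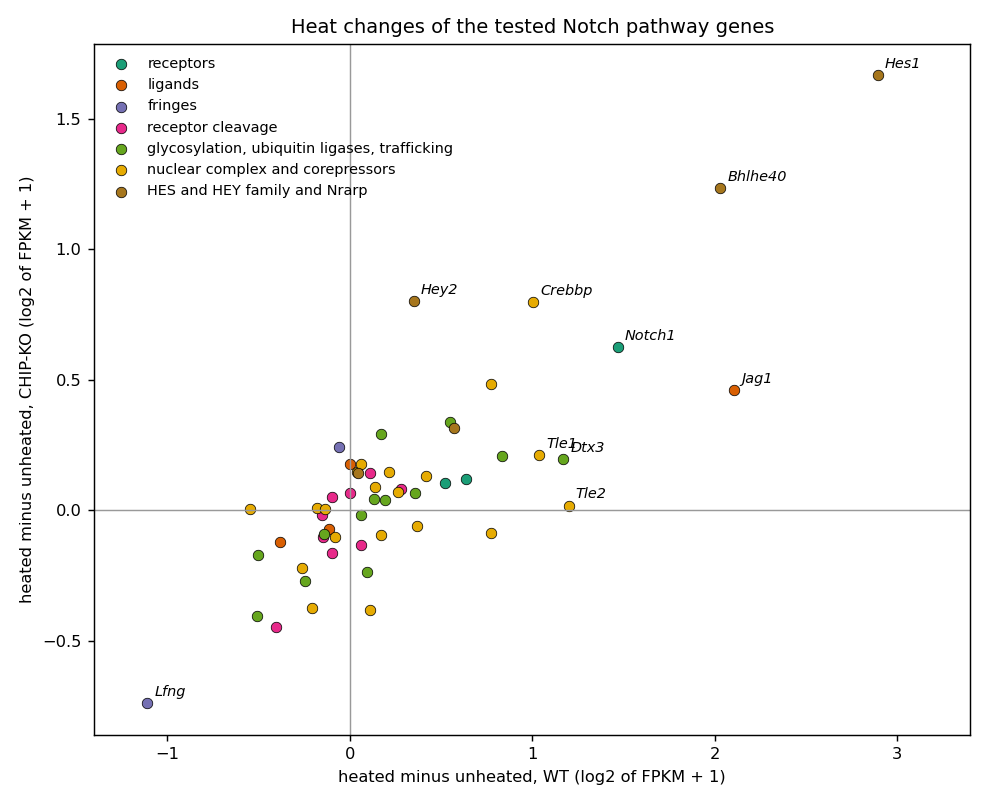
Heat change of the 56 tested pathway genes in WT cells (horizontal) and in CHIP-KO cells (vertical), as log2 differences of FPKM + 1, coloured by list. Hes1, Jag1, Bhlhe40 and Notch1 lie farthest to the right and Lfng farthest to the lower left.

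Finally, the members' patterns over the 12 libraries were set against each other and against 9715 other genes with a mean of at least 2 FPKM. These correlations are descriptions over libraries that share groups, heat and the libraries that stand apart. Among the members, Jag1 and Notch1 were most alike (Pearson r = 0.937), followed by Jag1 and Notch2 (r = 0.875) and Hes1 and Notch1 (r = 0.867). Lfng ran against every other tested member, from r = -0.859 with Jag1 to -0.553 with Notch3, and Notch2 and Notch3 were least related (r = 0.116). Outside the members, Hes1 was most like Id2 (r = 0.994), an inhibitor of basic helix-loop-helix factors that averaged 50.6 and 21.5 FPKM in heated and unheated CHIP-KO cells and 78.5 and 18.9 FPKM in heated and unheated WT cells. The next were Bloc1s1 and Zfand5 (r = 0.986 and 0.985). Jag1 was most like Nr2f2, Fndc3a and Acvr1 (r = 0.993, 0.993 and 0.987), Notch1 most like Resf1, Cblb and Ppp1r18 (r = 0.992, 0.983 and 0.980), and Lfng most like Lmbrd2, Lpgat1 and Twf1 (r = 0.986, 0.984 and 0.983).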

How the data were processed

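RNA was sequenced in 12 libraries, 3 per group; titles gave each library its number. Per the labels' protocols, poly(A) RNA was captured. The authors deposited FPKM values, 1 column per sample; HISAT2 is named in the submitters' processing notes, but the sources used here give neither its version nor the counting tool, strand setting and annotation, so antisense reads cannot be told apart. Multiplied by gene length, 100% of nonzero values were whole multiples (tolerance 0.01) of what a single fragment is worth in that library, which gave fragments. Such counts, and the 3 fragments that a 0 allows, cover counting error only. Times gene length in kilobases, FPKM values summed to 946546 to 1055285 per library, highest in the heated CHIP-KO group (1032729 to 1055285). Division by each library's own recovered fragments would give the same sum in all, so the depth used was another one, which is not stated. Of 54532 identifiers, 54495 were in GENCODE M21 and 53548 had identical positions, as did 9 of the 10 members. Genes annotated across Notch1, Notch2, Notch3, Nrarp and Dll1 had at most 24 fragments in any library. With the counting tool unknown, this does not bound the reads they share with a member. Gm38287, on the strand opposite Nrarp, covers positions 25180781 to 25183339 and had 0 fragments.

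Genes with at least 1 FPKM in at least 3 of 12 libraries were kept (13023). The limma package (3.58.1, R 4.3.3) was run on log2(FPKM + 1) with group means, a variance trend and 1 spread estimated from all libraries; tests were two-sided with Benjamini-Hochberg adjustment over all kept genes. The exact permutation test of 3 against 3 cannot go below p = 0.1. The steps were tested on simulated data. Members, lists and the naming rule were chosen with earlier results of these data known. Besides the members, list genes past the threshold with a log2 change of at least 1 in size were named (up to 4 per list), and the 3 genes most like each member that had a group mean of at least 2 FPKM and a range of at least 1 on the log2 scale. Stub1, marker genes, Adam10, Rbpj, Hes5, Notch4, Dll3 and Mfng were named after their values were seen. Alternatives covered pseudocount, filter, scaling, groups alone, library weights, replicate block, voom and left-out libraries. Plots used matplotlib 3.10.9 (Python 3.11.15).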

Additional observations from a re-analysis of the deposited data

Results flagged for a closer look

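The change with heat differed between the genotypes, by limma's interaction test, for 4 members, in each case with a lower value in CHIP-KO than in WT cells. Of all tested genes, 35.2% were called for the interaction, 17.3% negative and 17.9% positive. In CHIP-KO cells the heat change itself did not pass for Jag1 (limma adjusted p = 0.0548) or Notch3 (limma adjusted p = 0.297). The log2 difference of the heat changes was -1.65 for Jag1 (limma adjusted p = 0.000179), -1.23 for Hes1 (limma adjusted p = 0.0284), -0.84 for Notch1 (limma adjusted p = 0.0243) and -0.52 for Notch3 (limma adjusted p = 0.00297). For Jag1 and Notch1 the unheated levels differed too, with Jag1 at 5.99 ± 0.0336 FPKM in CHIP-KO and 0.903 ± 0.0468 FPKM in WT cells, and Notch1 at 5.10 ± 0.312 FPKM in CHIP-KO and 2.50 ± 0.246 FPKM in WT cells (SD, n = 3 each). For Hes1 and Notch3 the unheated levels did not pass the threshold (limma adjusted p = 0.397 and 0.404). The calls for Jag1 and Notch3 held without any 1 library, and those for Hes1 and Notch1 did not.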

How the results depend on the processing

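Of 690 values of the 6 tested members in 5 comparisons under the alternatives, 619 kept direction and call, 45 lost the call, 19 gained it and 7 turned in sign. Other filters, groups alone, the block and left-out libraries outside the compared groups leave the log2 value as it was. In those settings only the call could change. In heated cells Notch1 turned to a log2 difference of 0.098 with library weights, 0.22 without heated WT replicate 1 and also without WT replicate 1 of both treatments, 0.024 without heated CHIP-KO replicate 3 and 0.16 when heated CHIP-KO replicate 1 was left out as well, an alternative chosen after seeing the data; none of these was called, and over single libraries left out it ranged from -0.24 to 0.22. Under an equal sum per library the heat changes of Notch2 and Notch3 in CHIP-KO cells turned to -0.22 and -0.17. That scaling moved the median log2 heat change of all genes to -0.21 in WT and -0.29 in CHIP-KO cells, and the members' changes are to be read relative to this shift. With library weights 5 members were called, against 3, for heat in CHIP-KO cells, where 6201 of all tested genes were called, against 2607. Without a filter, 9 of 10 members were called for heat in WT cells, against 6 of 6, where 31.8% of all genes were called, against 58.7%. Called members numbered 2 without a filter and 1 with the groups alone, against 4, for CHIP-KO against WT after heat, and 2 without a filter, against 4, for the interaction. With each library left out they numbered 2 to 4 for heat in CHIP-KO, 1 to 3 for heated genotypes and 2 to 5 for the interaction, against 6 throughout for heat in WT and 4 throughout for unheated genotypes. Calls over all genes also moved with the setting, as given below. The member counts in this paragraph therefore do not set the members apart from other genes. The cause was not tested. Of all genes, calls for heat in WT cells numbered 5087 with a mean of at least 5 FPKM, against 7640. For heat in CHIP-KO cells they numbered 1578 with that filter, 8758 with an equal sum (547 higher and 8211 lower), 4043 with the groups alone, 6201 with library weights, 3913 with voom (906 higher and 3007 lower), 1592 to 1687 without an unheated CHIP-KO library and 4414 without WT replicate 1 of both treatments, against 2607 (1126 higher and 1481 lower). The share of higher against lower calls moved by over 10 percentage points for heat in WT cells with an equal sum (2343 higher and 6195 lower) and with no filter (5379 and 3873), against 3664 and 3976. It did so for heated genotypes with an equal sum (2367 and 3036) and voom (2433 and 3166), against 3033 and 2492, and for the interaction with an equal sum (1766 and 2868), against 2328 and 2253. Library weights gave 8590 against 5525 for heated genotypes and 7403 against 4581 for the interaction. Same-numbered libraries did not deviate together in every pair (r = -0.12 to 0.335), so the numbers were not taken as pairs; with the replicate number as a block the called members numbered 6, 4, 4, 4 and 4 over the 5 comparisons, and 1 of 30 calls changed, Jag1 with heat in CHIP-KO cells. Depth limits Dll1, Hey1, Heyl and Nrarp, with at most 57 fragments in a library.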

Other observations

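Of other Notch ligand, receptor and fringe genes below the filter, Dll3 and Mfng had every heated above every unheated library in both genotypes, as 12.3% of such low genes had in CHIP-KO and 18.3% in WT cells, and Dll4 did not. They were chosen after their values were seen, and no test of them is given. Dll3, a Delta-like gene that acts within the cell in which it is made, had 9 to 12 fragments per heated against 0 to 1 per unheated CHIP-KO library, and 8 to 18 per heated against 0 per unheated WT library. Mfng, the manic fringe gene, had 7 to 11 fragments per heated against 1 to 3 per unheated CHIP-KO library. In WT cells it had 28, 5 and 4 fragments in heated libraries, against 0, 3 and 3 in unheated ones, and its ratio of mean FPKM was 6.65 with and 1.73 without replicate 1 of both treatments, which stood apart. Dll4 had 11 fragments in all heated against 17 in all unheated CHIP-KO libraries, and 13 in heated against 7 in unheated WT libraries, with overlap in both. Notch4 had 12 to 24 fragments per CHIP-KO and 52 to 92 per WT library, and heated and unheated CHIP-KO libraries overlapped. In WT cells every heated library lay above every unheated one for Notch4 (0.475 to 0.621 against 0.330 to 0.449 FPKM), as for 18.3% of such low genes.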
